A study of Mus musculus with 6 samples.

Results

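The genes described here are 10 regulators of transcription in germ cells and in meiosis: Sohlh1, Sohlh2, Figla, Stra8, Taf7l, Taf9b, Brdt, Prdm9, Zcwpw1 and Hsf2bp. They were chosen by name for their known roles, with earlier results of these data known. Counts of calls among them are therefore a description. They are 10 of the 26567 genes that the deposited transcripts could be paired with. They were measured by RNA sequencing in sorted cap mesenchyme, the progenitor cells that surround the ureteric tips of the fetal kidney and give rise to nephrons. The cells came from C57BL/6 mouse kidneys at embryonic day 18.5. The knockout group (Dnmt1 -/-, n = 3 libraries) lacked both functional alleles of Dnmt1, which restores DNA methylation on newly replicated strands, and the heterozygous group (Dnmt1 +/-, n = 3 libraries) kept 1. Both groups carried the Six2.Cre driver, so that deletion of the conditional alleles took place where Six2, a transcription factor of nephron progenitors, had been active. The heterozygous libraries thus also lack 1 allele and carry Cre, and no library without these was analysed here. Nothing in the labels ties a library to its own embryo or litter. The p-values therefore reflect the spread among these libraries, part of which may be technical. RNA of 4 Y-linked genes was high in knockout replicate 2 and heterozygous replicates 1 and 3, and low in the other libraries. So each group holds more than 1 source, and the sexes are split unevenly between the groups.

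Germ cells use a set of transcription regulators that most body tissues keep silent. Sohlh1, Sohlh2 and Figla are basic helix-loop-helix factors of immature spermatogonia and oocytes, and Stra8 is switched on by retinoic acid when germ cells enter meiosis. Taf7l and Taf9b are variant subunits of the general transcription machinery, Brdt reads acetylated histones in spermatogenic cells, and Prdm9, Zcwpw1 and Hsf2bp act where chromosomes recombine. Many promoters of germline genes are rich in CpG, the dinucleotide that Dnmt1 keeps methylated, and methylation of such promoters in the embryo is a known route to their silencing in body cells. Methylation itself was not measured in these libraries.

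Each library held between 46741667 and 61585484 estimated counts, and values are given as CPM, counts divided by a library size that is scaled for composition, so that 3 counts equal 0.05104 to 0.0662 CPM. Dnmt1 was at 20.9, 18.6 and 14.9 CPM in knockout replicates 1 to 3, against 40.03, 52.4 and 51.7 CPM in heterozygous replicates 1 to 3. The fitted log2 fold change was -1.41 ± 0.15 (SE; edgeR quasi-likelihood test with adjusted p = 0.000264). The count covers the whole gene, including any exon that the deletion left in place. Summed levels of 10 cap mesenchyme markers (Six2, Cited1, Wt1 and others) were 1308 to 1601 CPM in knockout libraries and 1852 to 1949 CPM in heterozygous libraries, and all 10 were detected. Of these, Cited1 and Wt1 were lower in knockout cells, by log2 fold changes of -0.90 and -0.74 (edgeR, adjusted p = 0.0344 and 0.00723), and Meox1 was at 0.54 and not called (adjusted p = 0.0704). Endothelial marker sums were 220, 90.8 and 49.1 CPM in knockout replicates 1 to 3 and 35.1 to 41.9 CPM in heterozygous libraries. Stromal sums were 1028, 497 and 394 CPM in the knockout and 349 to 421 CPM in heterozygous libraries, and ureteric sums 239, 132 and 71.5 CPM against 44.7 to 83.2 CPM. Among them Emcn, Lum and Ret, 1 of 10 markers in each list, were higher in knockout cells (edgeR, adjusted p = 0.0425, 0.0366 and 0.00953). The part of these cells in the results below was not tested. In these bulk samples, fewer cells of a type and less RNA per cell cannot be told apart. Of 16989 genes tested, 6.85% changed in knockout cells at a Benjamini-Hochberg adjusted p of 0.05, 4.92% upward and 1.92% downward.

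The promoters of the 4 members called higher in knockout cells, and of Sohlh1, the partner of Sohlh2, are shown first. Their part in the values below was not tested. Each is the RefSeq window (assembly GRCm38.p6) from 250 bases before to 50 bases after the annotated start, written 5′ to 3′ along the gene's own strand, with each CpG in capitals.
Sohlh2: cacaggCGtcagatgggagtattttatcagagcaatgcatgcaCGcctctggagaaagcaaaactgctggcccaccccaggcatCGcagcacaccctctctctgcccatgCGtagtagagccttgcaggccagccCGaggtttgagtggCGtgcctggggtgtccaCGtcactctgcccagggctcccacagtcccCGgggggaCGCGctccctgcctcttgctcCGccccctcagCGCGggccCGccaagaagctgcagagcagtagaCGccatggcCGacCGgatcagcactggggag
Taf7l: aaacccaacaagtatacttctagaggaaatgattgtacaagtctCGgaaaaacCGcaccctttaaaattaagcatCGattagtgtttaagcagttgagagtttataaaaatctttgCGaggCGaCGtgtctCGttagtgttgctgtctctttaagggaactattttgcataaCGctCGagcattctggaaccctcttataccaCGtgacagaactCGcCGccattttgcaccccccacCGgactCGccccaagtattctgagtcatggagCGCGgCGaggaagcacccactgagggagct
Hsf2bp: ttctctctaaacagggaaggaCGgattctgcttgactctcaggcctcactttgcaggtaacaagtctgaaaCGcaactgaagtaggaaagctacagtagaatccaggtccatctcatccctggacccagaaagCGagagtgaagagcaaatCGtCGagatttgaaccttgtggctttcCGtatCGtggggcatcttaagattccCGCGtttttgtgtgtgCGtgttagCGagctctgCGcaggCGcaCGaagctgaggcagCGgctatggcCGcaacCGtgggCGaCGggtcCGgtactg
Stra8: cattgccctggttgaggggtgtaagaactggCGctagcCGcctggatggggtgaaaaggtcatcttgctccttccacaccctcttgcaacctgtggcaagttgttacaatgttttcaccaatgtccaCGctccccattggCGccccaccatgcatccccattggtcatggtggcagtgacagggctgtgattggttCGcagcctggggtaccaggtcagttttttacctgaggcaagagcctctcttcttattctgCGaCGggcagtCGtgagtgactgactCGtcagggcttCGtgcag
Sohlh1: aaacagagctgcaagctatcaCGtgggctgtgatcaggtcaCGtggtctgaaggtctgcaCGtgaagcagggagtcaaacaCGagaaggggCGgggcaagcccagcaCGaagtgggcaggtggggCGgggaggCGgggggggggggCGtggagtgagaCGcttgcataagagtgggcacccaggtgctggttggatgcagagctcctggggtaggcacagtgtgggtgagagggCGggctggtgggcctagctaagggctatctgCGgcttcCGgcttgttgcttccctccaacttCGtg
The Sohlh2 window lies at chr3:55181794-55182093 on the plus strand and holds 17 CpG sites. The Taf7l window lies at chrX:134476441-134476740 on the minus strand and also holds 17. The Hsf2bp window at chr17:32034459-32034758, minus strand, holds 20 CpG sites. Stra8 has the sparsest of the 5, with 10 CpG sites at chr6:34920698-34920997 on the plus strand. Sohlh1 has 14 CpG sites at chr2:25847199-25847498 on the minus strand. Over 32851 windows of 300 bases the median was 7 CpG sites, with quartiles at 3 and 20.

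Knockout cap mesenchyme contained RNA of Sohlh2, Taf7l, Hsf2bp and Stra8 at higher levels than heterozygous cells. The rises ran from a log2 fold change of 3.04 for Hsf2bp to 8.84 for Sohlh2. Taf9b, Brdt, Prdm9 and Zcwpw1 were measurable in all 6 libraries and did not pass the test, and Sohlh1 and Figla had too few counts to be tested. So 4 of the 8 tested members were higher and 0 lower, beside 4.92% higher and 1.92% lower of all genes (and 6.85% in either direction; edgeR quasi-likelihood test, adjusted p of 0.05 over all genes). At an unadjusted p of 0.05, 5 members were higher and 0 lower. DESeq2 called 5 higher and 0 lower, and limma voom 4 and 0. Sohlh2, Taf7l and Stra8 did not reach the minimum level of the filter in every heterozygous library and were tested on the strength of their knockout libraries, so their share of calls is not a measure of the whole set. In 6 of the 10 members every knockout library was above every heterozygous library, 5 of them among the tested 8, where 14.8% of all tested genes show that pattern.

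**Figure D1:**
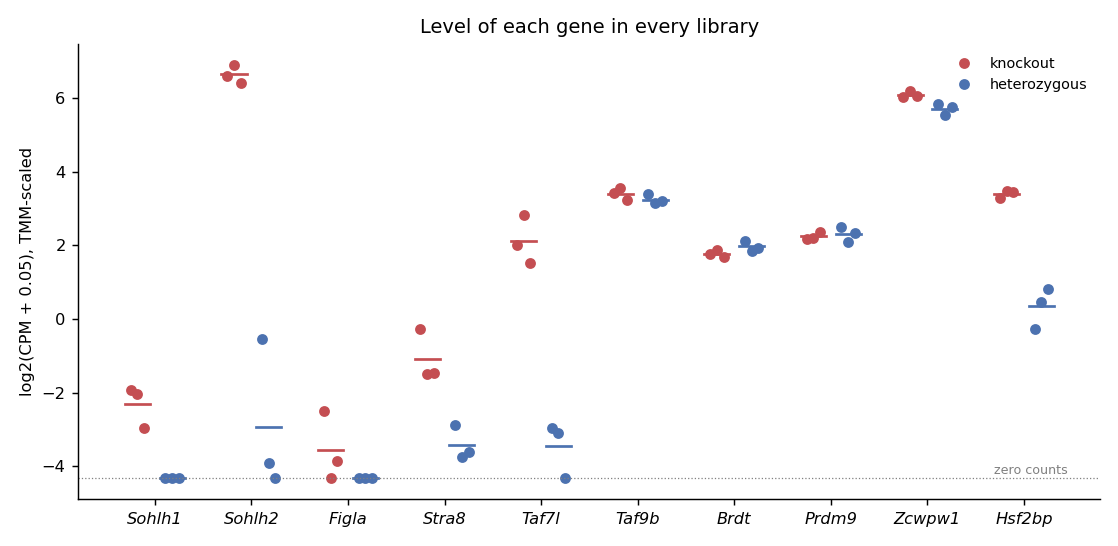
Level of each of the 10 members in each library, as log2(CPM + 0.05), with the 3 knockout libraries left of the 3 heterozygous libraries and a bar at the mean of the 3 log2 values. Sohlh2, Taf7l, Hsf2bp and Stra8 show separated groups, with Sohlh2 at 85.8 to 120 CPM in knockout libraries and at most 0.642 CPM in heterozygous libraries, while Taf9b, Brdt and Prdm9 overlap.

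Levels differed widely among the members when compared per length as TPM (transcript abundance scaled for length and library). Sohlh2 averaged 47.8 TPM in knockout cells and 0.119 TPM in heterozygous cells, which placed it 2176th of 26567 genes by mean TPM in the knockout and 17564th in the heterozygous cells. Zcwpw1 stood next, at 46.4 TPM in knockout and 41.4 TPM in heterozygous cells. Sohlh2 was thus near the level of Zcwpw1 in knockout cells, although Zcwpw1 was abundant in both groups. Hsf2bp followed at 7.57 and 0.848 TPM, Taf9b at 4.65 and 4.56 TPM, Taf7l at 3.20 and 0.0503 TPM, and Prdm9 at 3.14 and 3.30 TPM, each knockout before heterozygous. Brdt averaged 1.28 TPM in knockout and 1.70 TPM in heterozygous cells. Stra8 was at 0.388 TPM in knockout cells and 0.0528 TPM in heterozygous cells. Sohlh1 and Figla came last, at 0.150 and 0.0893 TPM in knockout cells and 0 in heterozygous cells. In the heterozygous cells the order by TPM was Zcwpw1, Taf9b, Prdm9, Brdt, Hsf2bp, Sohlh2, Stra8 and Taf7l.

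Sohlh2 pairs with Sohlh1 in germ cells, where both are needed for spermatogonia to differentiate and for early follicles to form. Sohlh2 was at 97.8, 120 and 85.8 CPM in knockout replicates 1 to 3, and at 0.642, 0.0170 and 0 CPM in heterozygous replicates 1 to 3. The groups lie far apart, and heterozygous replicate 1 holds nearly all of the heterozygous signal, with 33 estimated counts against 1 and 0 in the other heterozygous libraries. The means were 101 ± 17.5 CPM in knockout and 0.220 ± 0.366 CPM in heterozygous libraries (SD, n = 3 each). The log2 fold change was 8.84 ± 0.80 (SE; 95% interval 6.77 to 10.91; edgeR, adjusted p = 0.00489). Leaving out heterozygous replicate 1 raised it to 13.04 (edgeR, adjusted p = 1.48e-06), so the size of the fold rests on that library. Some other germline genes were also highest in that library among the heterozygous 3. The meiotic axis gene Hormad1 was at 0.369 CPM against 0.0618 and 0.0662 CPM, and Dazl at 0.350 CPM against 0.0681 and 0 CPM. Stra8 was at 0.0852 CPM against 0.0249 and 0.0323 CPM. Others were not. Ddx4, a germ cell RNA helicase, was highest in heterozygous replicate 2, at 0.408 CPM against 0.136 and 0.0441 CPM. The meiotic gene Tex11 was highest in heterozygous replicate 3, at 0.861 CPM against 0.408 and 0.187 CPM. Hsf2bp was lowest in heterozygous replicate 1, at 0.779 CPM against 1.34 and 1.72 CPM.

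Sohlh1, the partner, showed the same order of groups at a far lower level. It was at 0.212, 0.193 and 0.0786 CPM in knockout replicates 1 to 3 and at 0 in each heterozygous library. These are 10, 10 and 4 estimated counts in the knockout and 0, 0 and 0 in the heterozygous libraries. Set against 3 counts in each heterozygous library, the knockout level was at least 2.75-fold higher, a bound that covers counting error only. With no filter on low counts the edgeR adjusted p was 0.0558, and with DESeq2 it was 0.0561. Sohlh2 RNA therefore exceeded Sohlh1 RNA in each knockout library, 47.8 against 0.150 TPM on average.

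Figla, an oocyte factor that drives the genes of the zona pellucida, had 6, 0 and 1 estimated counts in knockout replicates 1 to 3 and 0 in every heterozygous library. These values are near the limit of 3 counts, the groups overlap, and no fold is given. Without the filter its edgeR adjusted p was 0.313. Helix-loop-helix factors of this class bind DNA with widely expressed partners such as Tcf3 and Tcf12. Tcf3 was at 41.6 CPM on average in knockout and 45.4 CPM in heterozygous libraries, a log2 fold change of -0.13 (edgeR, adjusted p = 0.488). Tcf12 was at 1.30, 4.65 and 3.93 CPM in knockout replicates 1 to 3 and 19.2, 10.6 and 17.8 CPM in heterozygous replicates 1 to 3. Every knockout library was below every heterozygous library for Tcf12, where 14.2% of tested genes show that order. Its log2 fold change of -2.26 ± 0.49 (SE) had an edgeR adjusted p of 0.0501, just past the threshold, and 9 of 18 alternative analyses called it lower.

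Genes of the oocyte that act under Figla and the Sohlh factors were read from a list of 16, including Zp1 to Zp3, Gdf9 and Nlrp5. Of these, 11 could be tested, 0 were called higher and 0 lower, and their median log2 fold change was -0.25, beside -0.003 over all tested genes. At an unadjusted p of 0.05, 0 were higher and 1 lower, and DESeq2 and limma voom called 0. A wider list of 19 germ cell transcription factors had 12 testable genes, 3 of them higher and 1 lower in knockout cells, with a median log2 fold change of 0.55. Over all tested genes 4.92% were higher and 1.92% lower, but the 3 that rose were at 0 in every heterozygous library and were tested through their knockout libraries alone. Rhox13, a homeobox gene of the X-linked reproductive cluster, was at 0.955, 1.43 and 1.04 CPM in the knockout libraries, at least 19.5-fold higher. Dmrtb1, a spermatogonial regulator of the switch to meiosis, was at least 12.5-fold higher. Spz1, a helix-loop-helix zipper factor of the testis, was at least 5.32-fold higher. The 1 that fell was Zbtb16, which maintains spermatogonial stem cells and is also used in other tissues. It was at 0.513, 0.367 and 0.690 CPM in knockout libraries and 1.17, 1.62 and 1.53 CPM in heterozygous libraries, a log2 fold change of -1.47 ± 0.36 (SE; edgeR, adjusted p = 0.0386). Zbtb16 was called in 9 of 16 alternative analyses and Spz1 in 14 of 15.

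Stra8, the retinoic acid responsive gatekeeper of meiotic entry, was scarce in both groups. It was at 0.776, 0.306 and 0.313 CPM in knockout replicates 1 to 3 and at 0.0852, 0.0249 and 0.0323 CPM in heterozygous replicates 1 to 3. Knockout replicate 1 was the highest, and the groups did not overlap. In estimated counts this is 37, 16 and 16 in the knockout and 4, 1 and 1 in the heterozygous libraries. The log2 fold change was 3.51 ± 0.75 (SE; 95% interval 1.85 to 5.18; edgeR, adjusted p = 0.0187). The call was lost without knockout replicate 1 or 2 (edgeR, adjusted p = 0.0809 and 0.0537), without heterozygous replicate 2 or 3 (adjusted p = 0.0917 and 0.0858), with the Y-linked level as a covariate (adjusted p = 0.0806), and with limma on log2(TPM + 1) without a filter (adjusted p = 0.127). Knockout replicate 1 also had the highest endothelial, stromal and ureteric marker sums given above, and knockout replicate 2 the next highest. Stra8 itself was at 0.306 CPM in knockout replicate 2 and 0.313 CPM in knockout replicate 3. The part of these cells in the Stra8 level was not tested.

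Genes of the retinoic acid pathway were read beside Stra8 from a list of 18, of which 16 could be tested. In knockout cells 5 were higher and 1 lower, beside 4.92% and 1.92% of all tested genes, with a median log2 fold change of 0.21. Aldh1a1, among the 5, reached the filter level in 1 heterozygous library and was tested on the strength of its knockout libraries. Rxrg, a retinoid X receptor, was at 6.33, 6.58 and 4.93 CPM in knockout libraries and 0.9753, 0.5135 and 0.445 CPM in heterozygous libraries, a log2 fold change of 3.21 (edgeR, adjusted p = 0.000198). Cyp26a1, an enzyme that degrades retinoic acid, was at 0.573, 0.251 and 0.688 CPM in knockout libraries and 0 in every heterozygous library, at least 8.61-fold higher, and was tested through its knockout libraries alone. Crabp1, which carries retinoic acid in the cytosol, rose by 1.36 on the log2 scale (edgeR, adjusted p = 0.0077). Rdh10, which makes retinaldehyde on the route to retinoic acid, fell by 0.55 on the log2 scale (edgeR, adjusted p = 0.00489). Without knockout replicate 1, 3 genes of the list were higher and 1 lower.

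Genes expressed at the start of meiosis and in its prophase were read from a list of 22, of which 20 could be tested. In knockout cells 10 were higher and 0 lower, beside 4.92% and 1.92% of all tested genes, and the median log2 fold change was 1.08, beside -0.003 over all genes. Sycp1 and Rec114, among the 10, reached the filter level in no heterozygous library. Hormad1 and Hormad2 reached it in 1 heterozygous library each, and Sycp2 and Tex11 in 2 each. All of these were tested on the strength of their knockout libraries. The list has been seen to rise in these data before, so its count is a description. Rec8, the meiotic cohesin subunit, averaged 57.1 CPM in knockout and 17.8 CPM in heterozygous libraries, a log2 fold change of 1.68 (edgeR, adjusted p = 6.77e-06). Stag3, another meiotic cohesin subunit, averaged 14.2 and 2.97 CPM in the same order, a log2 fold change of 2.26 (edgeR, adjusted p = 9.05e-06). Tex11, an X-linked gene of crossover formation, averaged 12.2 CPM in knockout and 0.485 CPM in heterozygous libraries. Hormad1 averaged 6.73 CPM in knockout and 0.166 CPM in heterozygous libraries.

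Taf7l is an X-linked variant of the TFIID subunit Taf7 that takes its place in germ cells. It was at 4.01, 7.02 and 2.83 CPM in knockout replicates 1 to 3 and at 0.0778, 0.0681 and 0 CPM in heterozygous replicates 1 to 3. All knockout libraries were above all heterozygous libraries, and knockout replicate 2 was the highest. The means were 4.62 ± 2.16 CPM in knockout and 0.0486 ± 0.0424 CPM in heterozygous libraries (SD, n = 3 each). This is a log2 fold change of 6.44 ± 0.64 (SE; 95% interval 4.98 to 7.89; edgeR, adjusted p = 0.000281), and each of 18 alternative analyses called it higher. Knockout replicate 2 had 185 CPM over 4 Y-linked genes and the other knockout libraries 7.78 and 10.4 CPM, while heterozygous replicates 1 to 3 had 309, 9.14 and 256 CPM. The Taf7l call held with the Y-linked level as a covariate. Of the 31-base stretches in Taf7l transcripts, 0.15% also occur in another gene.

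Taf7, the widely used subunit, was higher in knockout cells as well, by far less. It was at 53.5, 51.7 and 49.7 CPM in knockout libraries and 37.7, 39.0 and 37.9 CPM in heterozygous libraries. This corresponds to a log2 fold change of 0.44 ± 0.08 (SE; edgeR, adjusted p = 0.00959). The call was lost with library totals in place of composition scaling (log2 fold change 0.27, edgeR adjusted p = 0.0624) and on the TPM scale (limma, adjusted p = 0.0943 to 0.129).

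Taf9b, the X-linked variant of the TFIID and SAGA subunit Taf9, was measurable in both groups, at 10.7, 11.7 and 9.29 CPM in knockout libraries and 10.5, 8.78 and 9.13 CPM in heterozygous libraries, and the groups overlapped. The log2 fold change was 0.16 ± 0.15 (SE; 95% interval -0.18 to 0.50; edgeR, adjusted p = 0.579), and its sign turned with library totals. Taf9 had a log2 fold change of -0.07 (95% interval -0.26 to 0.12; edgeR, adjusted p = 0.668). A list of 12 transcription genes of the testis held variants of the core machinery, such as Taf4b and Tbpl1, and other regulators, such as Crem. Of the 12, 8 could be tested. Of these, 0 were called higher or lower, where 6.85% of all tested genes were called. Their median log2 fold change was 0.16, and 0 passed at an unadjusted p of 0.05, with DESeq2 or with limma voom.

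**Figure D2:**
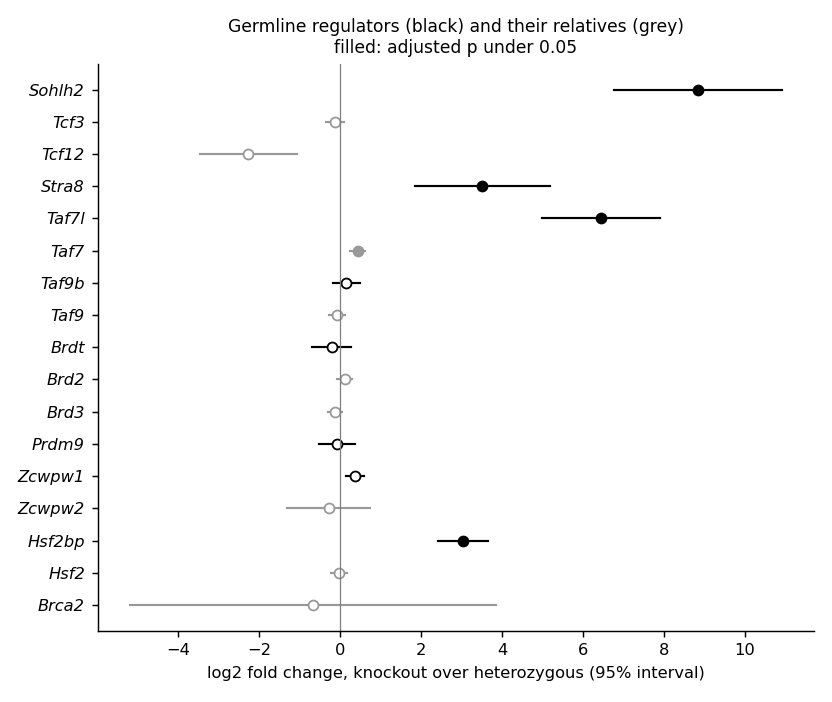
Fitted log2 fold change (knockout over heterozygous) of the 8 tested members and of the paralogs and partners reported here, with 95% intervals as bars, members in black, relatives in grey, and filled points for called genes. Sohlh2, Taf7l, Stra8 and Hsf2bp lie between 3.04 and 8.84, while the paralogs and partners other than Tcf12 and Brca2 lie within 0.44 of 0.

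Brdt is the germ cell member of the family of bromodomain proteins that bind acetylated histones, and it helps to compact chromatin in spermatids. It was measurable in cap mesenchyme of both groups, at 3.33, 3.63 and 3.14 CPM in knockout libraries and 4.32, 3.57 and 3.77 CPM in heterozygous libraries. The groups overlapped in CPM, and the log2 fold change was -0.21 ± 0.21 (SE; 95% interval -0.68 to 0.26; edgeR, adjusted p = 0.598). Its interval leaves out a change of the size seen for Hsf2bp. In TPM the groups did not overlap, at 1.37, 1.23 and 1.24 in knockout and 1.93, 1.52 and 1.66 in heterozygous libraries. Brdt was called in 0 of 18 alternative analyses, the TPM fits among them. The widely expressed relatives Brd2 and Brd3 had log2 fold changes of 0.12 and -0.12 (edgeR, adjusted p = 0.443 and 0.389). The sign of Brd2 turned in some alternative analyses, and Brd3 was called lower in 3 of 18.

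Prdm9 places methyl groups on histone H3 at the sites where meiotic recombination starts, and Zcwpw1 reads the marks it leaves. Prdm9 was at 4.47, 4.56 and 5.12 CPM in knockout libraries and 5.65, 4.24 and 5.01 CPM in heterozygous libraries. The groups overlapped, with a log2 fold change of -0.07 ± 0.20 (SE; 95% interval -0.52 to 0.37; edgeR, adjusted p = 0.863). Of the 31-base stretches in Prdm9 transcripts, 5.08% also occur in other genes. The sign of its fold change turned with a transcript-length offset, with the Y-linked level as a covariate and without heterozygous replicate 1.

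Zcwpw1 was among the most abundant members in both groups. It was at 64.8, 73.6 and 66.4 CPM in knockout libraries and 57.0, 46.3 and 54.2 CPM in heterozygous libraries, so that every knockout library was above every heterozygous library. The means were 68.3 ± 4.70 CPM in knockout and 52.5 ± 5.53 CPM in heterozygous libraries (SD, n = 3 each). The log2 fold change was 0.38 ± 0.10 (SE; 95% interval 0.16 to 0.60), with an unadjusted p of 0.00345 and an adjusted p of 0.0501 in edgeR. This lies at the threshold, and 6 of 18 alternative analyses called it higher, DESeq2 among them (adjusted p = 0.00848). Zcwpw1 transcripts share 19.81% of their 31-base stretches with another gene, Pilra, which was at 0.635 CPM on average in knockout and 0.517 CPM in heterozygous libraries. Zcwpw2, the related reader, had a log2 fold change of -0.28 (95% interval -1.32 to 0.75; edgeR, adjusted p = 0.758).

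Lists around Prdm9 showed few calls, where 4.92% of all tested genes were higher and 1.92% lower. Of 11 enzymes and partners of histone H3 lysine methylation, all tested, 0 were higher and 1 lower, with a median log2 fold change of -0.10. The 1 that fell was Setd1b, a lysine methyltransferase, by 0.46 on the log2 scale (edgeR, adjusted p = 0.0346), and 10 of 18 alternative analyses called it. Of 13 other genes of the Prdm family, 10 could be tested and 0 were called, with a median of 0.02. At an unadjusted p of 0.05, 0 of these were higher and 2 lower, DESeq2 called 0 higher and 1 lower, and limma voom called 0.

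Hsf2bp binds the heat shock factor Hsf2 and brings the recombination protein Brca2 to meiotic chromosomes. It was at 9.70, 11.1 and 10.8 CPM in knockout libraries and 0.779, 1.34 and 1.72 CPM in heterozygous libraries. All knockout libraries were above all heterozygous libraries and close to one another, and unlike Sohlh2, Taf7l and Stra8 it had a measurable level in every heterozygous library, of 40 to 79 estimated counts. The means were 10.5 ± 0.737 CPM in knockout and 1.28 ± 0.475 CPM in heterozygous libraries (SD, n = 3 each). Fitted across all genes, the log2 fold change was 3.04 ± 0.28 (SE; 95% interval 2.42 to 3.66; edgeR, adjusted p = 7.65e-05), and each of 18 alternative analyses called it higher. Hsf2 was at 70.5, 70.4 and 69.2 CPM in knockout libraries and 78.3, 64.5 and 70.9 CPM in heterozygous libraries, a log2 fold change of -0.02 (95% interval -0.22 to 0.17; edgeR, adjusted p = 0.898). The paired transcripts of Brca2 had 2, 0 and 46 estimated counts in knockout and 15, 70 and 0 in heterozygous libraries, too uneven within each group to give a direction (log2 fold change -0.66 ± 1.79, SE; edgeR, adjusted p = 0.863).

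Among the 10 matched paralogs and partners of the members, all tested, 1 was higher and 0 lower, beside 4.92% and 1.92% of all tested genes. At an unadjusted p of 0.05, 1 was higher and 1 lower, and DESeq2 and limma voom each called 1 higher and 1 lower. Their median log2 fold change was -0.10, beside -0.003 over all tested genes.

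The transcripts that carried the counts were read next, since kallisto divides reads among annotated isoforms. In the files, 29 transcripts were paired by identifier with the 10 members. Of these, 20 reached 10 counts in a library and 15 could be tested. Whether unpaired transcripts also belong to a member is not known, and the shares below are of paired transcripts. The 4 called, all higher, were Sohlh2-001, Taf7l-001, Hsf2bp-001 and Hsf2bp-003, beside 1.59% of 50137 tested transcripts higher and 0.199% lower (edgeR, adjusted p of 0.05). Sohlh2-001 is the one paired transcript of Sohlh2, and its log2 fold change was 8.91 (edgeR, adjusted p = 0.00503).

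Taf7l had one leading isoform in knockout cells. Taf7l-001, which begins at the RefSeq start whose window is printed above, had 151, 270 and 113 counts in knockout libraries and 0, 2 and 0 in heterozygous libraries. It made up 76.7% of knockout counts of Taf7l and 28.4% of the 8 heterozygous counts. Taf7l-002, which begins 1497 bases downstream, had 38, 94 and 28 counts in knockout libraries and 4, 2 and 0 in heterozygous libraries, a log2 fold change of 4.79 (edgeR, adjusted p = 0.0585).

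Hsf2bp-001 begins at the RefSeq start and held 75.6% of Hsf2bp counts in knockout and 88.0% in heterozygous cells. It had 344, 421 and 432 counts in knockout libraries and 36, 66 and 71 in heterozygous libraries, a log2 fold change of 2.88 (edgeR, adjusted p = 0.00586). Hsf2bp-003 begins 21105 bases downstream and had 114, 143 and 107 counts in knockout libraries and 2, 10 and 6 in heterozygous libraries. Its log2 fold change was 4.44 (edgeR, adjusted p = 0.00742), and its share of Hsf2bp counts was 22.9% in knockout and 9.09% in heterozygous cells. Per length the order of the 2 turned in knockout cells, where Hsf2bp-003 averaged 3.84 TPM and Hsf2bp-001 3.06 TPM, while in heterozygous cells they averaged 0.192 and 0.469 TPM. The difference in share was not tested.

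For Stra8, 91.9% of the knockout counts were assigned to Stra8-201, which begins 12 bases after the RefSeq start. It had 37, 16 and 10 counts in knockout libraries and 0 in each heterozygous library. Stra8-002, which begins 66 bases after that start, took the remaining 6 counts of knockout replicate 3 and all heterozygous counts. Stra8-001, which begins at base -785 relative to it, was at 0 in all 6 libraries. With so few counts and starts this close, the division between the first pair is uncertain.

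Taf9b, Brdt, Prdm9 and Zcwpw1 each had the same leading isoform by counts in both groups. Taf9b-002 held 90.1% of Taf9b counts in knockout and 83.3% in heterozygous cells, and Taf9b-001 the rest apart from 1 count. Brdt-001 held 70.3% in knockout and 66.2% in heterozygous cells. Its companion Brdt-002, which begins 28643 bases downstream, held 29.7% and 33.8% in the same order. Per length Brdt-002, the shorter of the pair, was ahead in both groups, at 0.746 TPM in knockout and 1.06 TPM in heterozygous cells, with Brdt-001 at 0.536 and 0.638 TPM. Prdm9-203 held 80.5% in knockout and 82.9% in heterozygous cells, and begins 8 bases after the second of 2 RefSeq starts of Prdm9. Prdm9-001, Prdm9-002, Prdm9-003 and Prdm9-004 each held at most 9.02% in either group. Zcwpw1-001 held 87.0% in knockout and 84.4% in heterozygous cells, with a log2 fold change of 0.49 (edgeR, adjusted p = 0.0992). Zcwpw1-002 and Zcwpw1-004 held 5.80% and 7.09% in knockout cells and 8.76% and 6.84% in heterozygous cells.

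**Figure D3:**
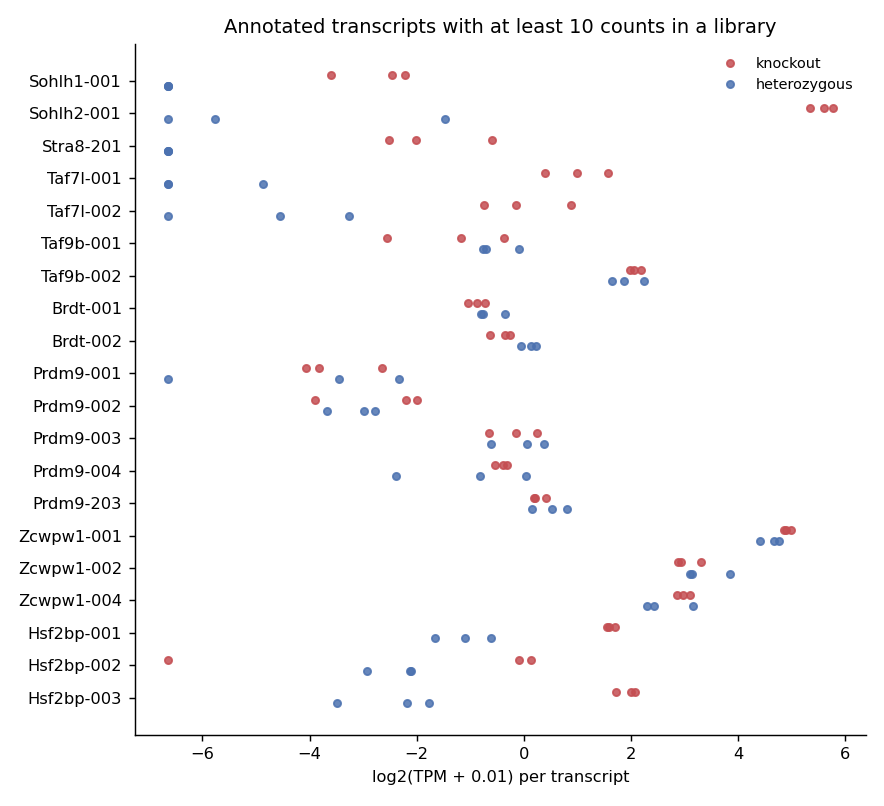
Level of the 20 member transcripts with at least 10 counts in a library, as log2(TPM + 0.01), 1 point per library, with knockout above heterozygous in each row. Knockout points of Sohlh2-001, Taf7l-001, Hsf2bp-001 and Hsf2bp-003 lie to the right of all heterozygous points, and those of Taf9b-002 and Prdm9-203 lie among them. For Brdt-001 the groups overlap, with knockout replicates 1 and 3 to the left of all heterozygous points.

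Genes next to the members were read to see whether they moved too. For each member the nearest protein-coding gene on either side was taken from the gene annotation on NCBIM37, which gives 20 neighbours, 17 of them tested and 1 called, where 6.85% of all tested genes were called. The closest starts belong to pairs that face away from each other. Rrp1b starts 1592 bases from Hsf2bp on the opposite strand and was at 126 CPM on average in knockout and 123 CPM in heterozygous libraries (log2 fold change 0.03, 95% interval -0.20 to 0.27), while Hsf2bp rose by 3.04. Mepce starts 1083 bases from Zcwpw1 and was at 26.0 CPM in knockout and 25.2 CPM in heterozygous libraries (log2 fold change 0.04). Wdr91, 9287 bases from Stra8, had a log2 fold change of -0.11.

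The neighbours of the other called members lay farther off. A730037C10Rik, which starts 44689 bases upstream of Sohlh2, had a log2 fold change of -0.29 and did not pass the test. Dclk1, a microtubule-associated kinase that starts 60498 bases downstream of Sohlh2, was at 32.4 ± 1.51 CPM in knockout and 42.8 ± 4.77 CPM in heterozygous libraries (SD, n = 3 each). Its log2 fold change was -0.40 ± 0.10 (SE; edgeR, adjusted p = 0.0446), opposite to that of Sohlh2, and the call was lost with any 1 library left out. Timm8a1 and Drp2, 65375 and 71939 bases from Taf7l, had log2 fold changes of 0.11 and 0.02. The difference between a member and its neighbours was not tested.

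**Figure D4:**
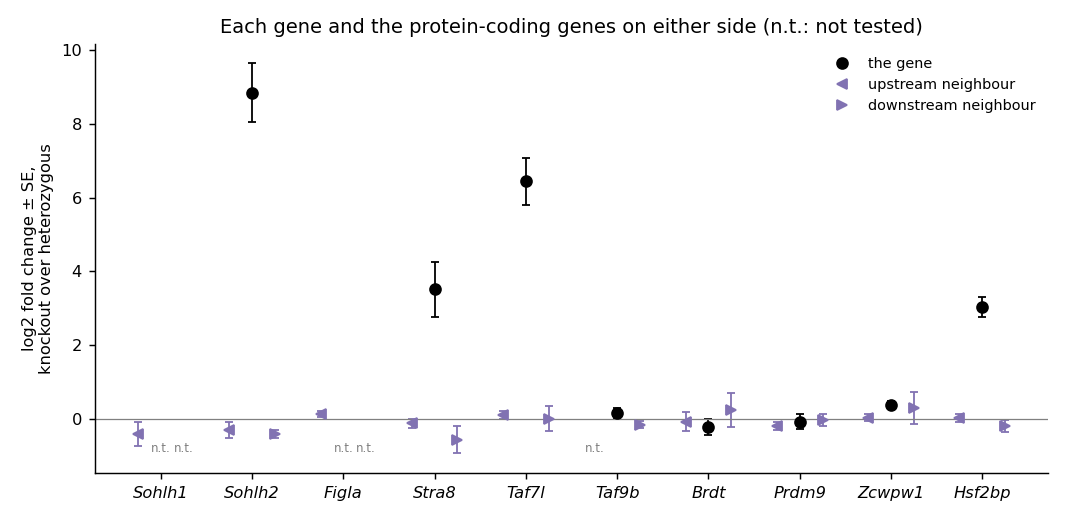
Log2 fold change (knockout over heterozygous) of each tested member and of its nearest protein-coding neighbours upstream and downstream, with SE as bars, members as black circles and neighbours as purple triangles. The neighbours lie between -0.56 and 0.30, and Dclk1 at -0.40 is the 1 that was called.

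All 10 members matched RefSeq promoter windows, 13 in all because Taf9b, Prdm9 and Zcwpw1 have more than 1 start. Each of the 13 held more CpG sites than the median window, from 9 to 23. Sohlh2, Taf7l, Hsf2bp and Stra8 had 17, 17, 20 and 10 CpG sites, and Brdt, which did not pass the test, had 23. By the ratio of observed to expected CpG, Taf7l stood at 1.03, Hsf2bp at 0.934, Sohlh2 at 0.545 and Stra8 at 0.430, where the median over all windows was 0.384 with quartiles at 0.176 and 0.750. Zcwpw1, abundant in both groups, stood at 0.952 and 1.06 in its 2 windows. Sohlh1 stood at 0.525, close to Sohlh2.

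Repressor complexes that keep germline genes silent include Mga and Max, which bind the letters CACGTG, and E2f6, which binds TCCCGC. Both motifs were searched on both strands (CACGTG reads the same on either), and neither overlaps the other. CACGTG was found in the windows of 4 members and in 7.15% of all windows. Counted in bases from the start, it begins at -49 in Taf7l, at -78 in Brdt and at -90 in Taf9b, and Sohlh1 holds it 3 times, at -231, -211 and -192, where 0.59% of all windows hold it more than once. TCCCGC was found in the windows of 3 members, namely Hsf2bp, Prdm9 and Taf9b, and in 19.98% of all windows. In Hsf2bp it begins at -49. Neither set of letters is in the windows of Sohlh2, Stra8, Figla or Zcwpw1. A match is a description of the letters, not evidence of binding, and each motif occurs in a called member and in members that were not called.

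**Figure D5:**
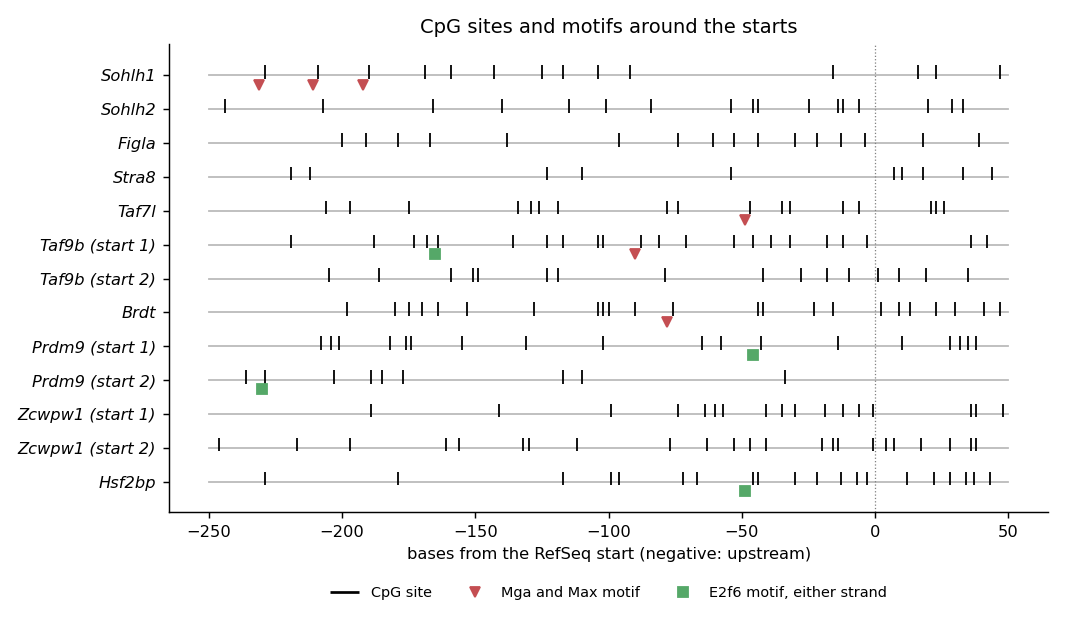
Positions of CpG sites (ticks) and of the motifs CACGTG (Mga and Max, triangles) and TCCCGC (E2f6, squares) in the RefSeq promoter windows of the members, in bases from the annotated start, from 250 before to 50 after. Sohlh1 holds 3 Mga and Max motifs between -231 and -192, and Stra8 has 10 CpG sites.

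The genes of such repressor complexes were themselves read from a list of 16, all tested. In knockout cells 0 were higher and 1 lower, beside 4.92% and 1.92% of all tested genes, and the median log2 fold change was -0.04. The 1 that fell was Yaf2, a subunit of a variant Polycomb complex, at 39.4, 41.2 and 40.8 CPM in knockout libraries and 54.8, 55.02 and 50.5 CPM in heterozygous libraries. Its log2 fold change was -0.40 (edgeR, adjusted p = 0.0161), and 14 of 18 alternative analyses called it.

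Markers of other cell types were read for all libraries, because germ cells or gonadal cells would carry the members. The 10 germ cell markers summed to 293, 327 and 251 CPM in knockout libraries and 9.41, 10.5 and 13.7 CPM in heterozygous libraries, most of it Dazl in the knockout. Dazl, which controls translation in germ cells, was at 266, 303 and 235 CPM in knockout libraries and at most 0.350 CPM in heterozygous libraries. Of the 8 germ cell markers tested, Dazl, Ddx4 and Dnd1 were higher and 0 lower, beside 4.92% and 1.92% of all tested genes. Dazl and Ddx4 reached the filter level in 1 heterozygous library each and were tested on the strength of their knockout libraries. The part of these markers in the levels of the members was not tested. The oocyte and primordial germ cell marker Dppa3 was at 0.488, 0.135 and 0.0196 CPM in knockout libraries and 0, 0 and 0.0387 CPM in heterozygous libraries. Pou5f1 and Kit, which germ cells also express, did not pass the test (edgeR, adjusted p = 0.634 and 0.720). The 10 markers of somatic cells of testis and ovary summed to 51.6 to 63.7 CPM in knockout and 62.6 to 88.2 CPM in heterozygous libraries. Sox9 held most of it, at 46.9 CPM on average in knockout and 60.8 CPM in heterozygous libraries. Star averaged 4.87 and 5.82 CPM, Inha 2.88 and 3.94 CPM and Nr5a1 0.319 and 1.18 CPM in the same order. Dmrt1 and Foxl2 were at 0 in all 6 libraries. Immune markers summed to 24.3 to 33.4 CPM in knockout and 18.6 to 20.4 CPM in heterozygous libraries.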

How the data were processed

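The authors deposited for each library a kallisto table of transcripts with estimated counts, TPM and effective length. The submitters' processing notes name mm10 and kallisto. Not given in the sources used here are the kallisto version, index annotation, trimming and strandedness. Per the labels, 50 ng of RNA per sample was used for ultra low input sequencing. Without known strand, antisense reads cannot be told apart.

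Of 96626 transcripts, 74519 were paired by identifier with 26567 genes of GENCODE vM1 (annotated on NCBIM37), which held 92.4% to 92.82% of estimated counts. Counts were summed per gene, rounded and tested with edgeR 4.0.16 (quasi-likelihood, TMM, filterByExpr at 0.197 CPM, robust), with Benjamini-Hochberg adjustment over 16989 genes at 0.05. The 22107 unpaired transcripts entered only the transcript test. Intervals are 95% intervals of the fit. Alternatives used DESeq2 1.42.0, limma 3.58.1 (voom, and log2(TPM + 1) or log2(TPM + 0.1)), other scalings, filters and covariates, and each library left out. Every pair of libraries differed by more than sampling noise (chi-square per degree of freedom of at least 13.63). The main test was checked on simulated counts, with changes placed in genes above 1 CPM. It called 62.5% of the genes with a log2 change of 1 and 93.8% of those with 2, with 20 false calls. The members and gene lists were chosen with earlier results of these data known. Named were the members, Dnmt1, the paralogs and partners, up to 4 called genes per list, called neighbours and transcripts with at least 10 counts in a library, and other names were chosen after their values were seen. Of the listed genes, Brme1, Meiosin, Taf1l and Lhx8 were not matched and are not analysed here, and 1 gene that the naming rule takes is not reported here.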

Additional observations from a re-analysis of the deposited data

How the results depend on the processing

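Between 3 and 5 members were called higher and 0 lower over the 18 alternatives, and Taf7l and Hsf2bp were called in each. Sohlh2 was called in 17 and Stra8 in 9 of the 15 that tested it. The count of all genes called higher moved to 1346 with DESeq2, to 457 and 454 with limma on log2(TPM + 1) and log2(TPM + 0.1) with a filter, and to 548 with log2(TPM + 1) and no filter. Leaving out 1 library gave 526 to 916 higher genes (526 without knockout replicate 2) and 116 to 272 lower genes (116 without knockout replicate 2, 170 without heterozygous replicate 2 and 171 without heterozygous replicate 3). The count of genes called lower moved to 1883 with library totals, 586 with DESeq2, 761 and 756 with the filtered TPM fits and 135 with the Y-linked level as a covariate. The median log2 fold change of all genes moved to -0.17 with library totals and to -0.13 and -0.14 with the filtered TPM fits, so the shift bears on every small change. Library totals called 2 neighbours, and voom, the length offset, the TPM fits, the Y-linked covariate and each fit without 1 library called 0. The causes of these moves were not tested.

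In deviations from their group means, same-numbered libraries correlated at -0.068, -0.031 and -0.045, and differently numbered pairs at -0.114 to 0.135. With 3 libraries per group these values show no pairing by number but cannot exclude one. With the replicate number as a block, 3 members were higher (Sohlh2 had an edgeR adjusted p of 0.0527), 707 genes were higher and 265 lower. Depth limits Sohlh1, Figla and Stra8, which rest on at most 37 counts per library.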
